A study of Mus musculus with 12 samples.

Results

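The enteric nervous system is a network of neurons and glia that descends from neural crest cells and lies in the wall of the gut, mainly in ganglia between the muscle layers and beneath the mucosa. Its precursors depend on GDNF, which acts through the receptor tyrosine kinase Ret and the co-receptor Gfra1, and on endothelin 3, which acts through Ednrb. Mature excitatory neurons use acetylcholine and tachykinins, and inhibitory neurons use nitric oxide and vasoactive intestinal peptide. The genes described here are 33 that mark these cells, chosen by name, of 35240 gene symbols in the deposited table. They comprise 12 pan-neuronal genes, 6 genes of transcription factors and receptors, 10 genes of transmitter synthesis and neuropeptides, and 5 glial genes. Of the 33, 27 were counted as neuronal and 5 as glial, and Ednrb was kept apart because neurons, glia and other cells of the gut use it.

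RNA was taken from full-thickness distal colon of 12 mice, all homozygous for a floxed Spry2 allele. In 6 mice (Spry2IEKO, labelled Vil1::Cre;Spry2-f/f) Cre recombinase under the villin promoter deleted Spry2 in intestinal epithelial cells, and the other 6 (Spry2FF) were littermates with the floxed alleles and no Cre. Sprouty2, the product of Spry2, restrains signals downstream of receptor tyrosine kinases. Each of the 2 litters, A and B, gave 3 mice of each genotype. Litter A held 2 males and 1 female among its Spry2FF mice and 3 females among its Spry2IEKO mice, whereas each genotype of litter B had 1 male and 2 females. The labels give an age of 6 weeks at dissection in the account of rearing and of 8 weeks in that of RNA extraction. Villin is a gene of the epithelium, and neurons and glia are not cells in which this Cre is known to act. In whole tissue, fewer cells of a type and less RNA per cell cannot be told apart.

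Levels are given as normalized TPM, a measure corrected for gene length and library size that the authors had scaled once more between mice, summed over the transcripts of a gene. The sums over named genes ran from 918235 to 1068529 per mouse, the table holds no read counts, and no counting error could be attached to a level. Spry2 itself, measured over all cells of the colon wall, lay between 18.5 and 22.5 in the 6 Spry2IEKO mice and between 22.8 and 32.3 in the 6 Spry2FF mice, so the groups did not overlap. Its log2 difference was -0.45 ± 0.09 (SE), with an unadjusted p of 0.000174 and an adjusted p of 0.160 by limma.

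All 33 genes were present in the table. The level averaged over the 12 mice reached 0.5 for 30 of them, and these were tested. Chat, Th and Foxd3 lay under it. For a few of them the annotation bears on what a level measures. Slc18a3, which encodes the vesicular acetylcholine transporter, lies on chromosome 14 at 32462438 to 32464850 (GRCm38, minus strand), inside the span of Chat (32408203 to 32465989, minus strand), which encodes choline acetyltransferase. Tubb3, the neuronal beta-tubulin on chromosome 8, overlaps Gm20388 on the same strand, whose own mean level was 14.3 against 6.31 for Tubb3, so their reads may have been divided between them. For Uchl1, a neuronal deubiquitinase gene, 75.7% of the summed level sat on a transcript annotated as a retained intron and 16.8% on protein-coding transcripts. Foxd3, a neural crest transcription factor, had 2 gene identifiers with the same level.

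The promoter stretches of 4 transmitter genes are shown because their levels carry much of what follows: Vip and Tac1 are the most abundant neuropeptide genes here, and Chat and Slc18a3 share the cholinergic locus. Each sequence comes from the 250 bases before the start that RefSeq gives on GRCm38.p6, read 5′ to 3′ on the strand of the gene, without the bases that GENCODE places in an exon of the same gene (182 for Tac1 and 80 for Chat). Capitals mark TGACG or its reverse complement CGTCA, the core letters of the cyclic AMP response element.
Vip: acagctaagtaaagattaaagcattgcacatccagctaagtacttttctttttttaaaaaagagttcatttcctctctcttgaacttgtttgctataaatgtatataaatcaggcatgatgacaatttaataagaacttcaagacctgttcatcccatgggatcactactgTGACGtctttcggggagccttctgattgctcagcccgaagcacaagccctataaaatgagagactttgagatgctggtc
Tac1: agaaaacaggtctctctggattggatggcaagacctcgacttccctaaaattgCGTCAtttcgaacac
Chat: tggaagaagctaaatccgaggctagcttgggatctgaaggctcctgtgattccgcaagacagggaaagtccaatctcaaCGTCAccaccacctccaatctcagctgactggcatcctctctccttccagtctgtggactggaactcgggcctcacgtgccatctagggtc
Slc18a3: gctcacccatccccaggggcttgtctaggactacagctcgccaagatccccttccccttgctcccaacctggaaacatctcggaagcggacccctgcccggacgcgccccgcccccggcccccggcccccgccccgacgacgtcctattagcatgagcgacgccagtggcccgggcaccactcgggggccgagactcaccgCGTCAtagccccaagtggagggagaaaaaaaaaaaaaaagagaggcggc
On the build's coordinates these are chr10:5638968-5639217 (plus strand) for Vip, chr6:7554811-7554878 (plus strand) for Tac1, chr14:32465990-32466159 (minus strand) for Chat and chr14:32464851-32465100 (minus strand) for Slc18a3. The stretch of Slc18a3 lies within Chat. RefSeq promoters were found for 22 of the 33 genes. Among those 22, 11 held TGACG on either strand within the 250 bases before a start (Cartpt, Chat, Ednrb, Elavl4, Foxd3, Hand2, Nos1, Slc18a3, Tac1, Th and Vip), where the same letters occurred in a promoter of 19.8% of all genes and in 17.8% of all promoters. Relative to the RefSeq starts, Vip held it at 79 to 75 bases before, and Th held TGACG and CGTCA in overlap between 45 and 38 bases before. These are matches of letters and not measured sites.

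The mean level over mice spanned 0.144 for Th to 44.3 for L1cam. L1cam, an adhesion molecule of growing axons, was the most abundant, followed by Vip at 31.1, Tac1 at 24.1, Uchl1 at 20.5 and Penk at 17.3. Of the summed L1cam level, 56.4% sat on protein-coding transcripts, and L1cam overlaps Arhgap4 (mean level 6.89) on the same strand. Penk encodes the opioid precursor proenkephalin, which stromal cells can also make. Snap25 and Stmn2, which serve vesicle release and microtubule dynamics, followed at 15.0 and 14.8. The factors and receptors spanned 0.847 to 5.84, with Hand2 highest. The glial genes spanned 0.293 for Foxd3 to 3.42 for Gfap. Neighbours in this order could overlap over mice, as Snap25 ran from 9.65 to 19.0 and Stmn2 from 7.37 to 20.1.

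A single mouse stood apart before any comparison was made. Spry2IEKO replicate 12, a mouse of litter B, had the lowest of the 12 levels in 22 of the 30 tested genes, comprising 19 of 25 neuronal genes and 3 of 4 glial genes. The exceptions were Nefl and Nefm, the neurofilament genes, which were lowest in Spry2IEKO replicate 5, Snap25 in Spry2FF replicate 3, L1cam in Spry2IEKO replicate 4, Ret, Cartpt and Gfap in Spry2IEKO replicate 11, and Ednrb in Spry2FF replicate 9. On the log2 scale the median of the neuronal genes in replicate 12 lay 0.70 under their means, against -0.23 in the next lowest mouse, Spry2IEKO replicate 11, and 0.30 in the highest, Spry2FF replicate 2. Its 12 smooth muscle genes were low as well, with a median of -0.64, the lowest of all mice, while its median was 0.11 for 10 epithelial genes, 0.32 for 9 enteroendocrine genes and 0.60 for the 6 tuft cell genes used. It was the lowest mouse for the fibroblast (-0.78), striated muscle (-0.60) and interstitial cell of Cajal (-0.51) genes too, and it had 18654 genes above 0, against 19061 to 19752 in the other mice. The medians by genotype of the 30 genes, their roles and most other lists are therefore given with and without this mouse. The part of tissue composition or library quality in its values was not tested.

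**Figure D1:**
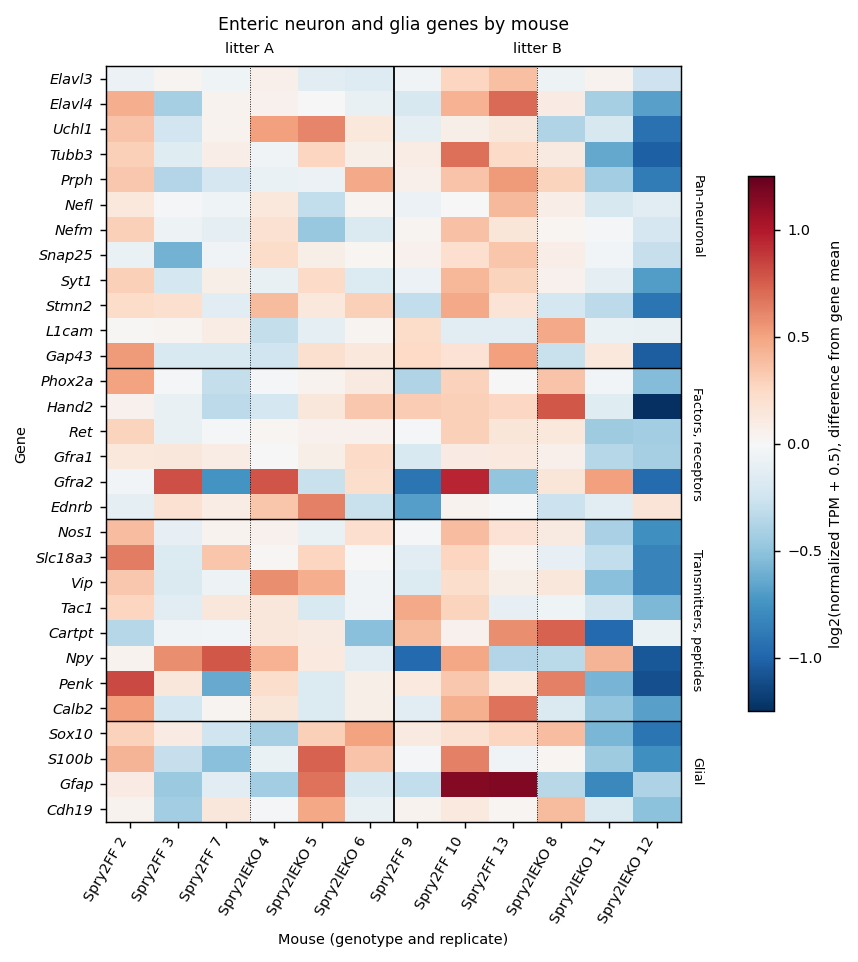
Each row is a tested gene, each column a mouse, and the colour is the difference of log2(normalized TPM + 0.5) from the gene's mean over the 12 mice (blue below, red above). The column of Spry2IEKO replicate 12 is blue in most rows. Ednrb lies above its mean in that mouse, and L1cam and Nefl lie below theirs but are lowest in other mice.

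The comparison of genotypes asked whether loss of Spry2 in the epithelium went with a change in enteric neuron or glia genes. None of the 30 genes passed the test (limma, two-sided, Benjamini-Hochberg adjustment over 15879 genes, threshold 0.05), where 0.0315% of all genes tested did. The lowest adjusted p among them was 0.753. At an unadjusted p under 0.05 there were 2 of 30, Tac1 and Calb2, both lower in Spry2IEKO mice, beside 6.18% of all genes. The difference was below 0 in 26 of 30 genes with a median of -0.20, while 52.1% of all genes had a difference above 0 and the median of all genes was 0.01. Without Spry2IEKO replicate 12, 20 of 30 differences were below 0, the median was -0.10, and no gene had an unadjusted p under 0.05.

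Tac1 encodes the precursor of substance P and neurokinin A and is made by excitatory motor neurons and some enteroendocrine cells. Its lowest, median and highest levels were 21.6, 27.4 and 33.1 in Spry2FF mice and 15.9, 21.8 and 26.1 in Spry2IEKO mice. The upper Spry2IEKO mice lay within the range of the controls. The log2 difference was -0.31 ± 0.13 (SE), with an unadjusted p of 0.0308 and an adjusted p of 0.753 by limma, and it was -0.23 without Spry2IEKO replicate 12. The enteroendocrine list ran the other way, with all 9 differences above 0 and a median of 0.29, or 0.26 without Spry2IEKO replicate 12. Which cells gave the lower Tac1 level was not tested.

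Calb2 encodes calretinin, a calcium-binding protein of many myenteric neurons. The levels in litter A were 17.6, 10.4 and 12.5 in Spry2FF mice and 13.6, 10.8 and 12.8 in Spry2IEKO mice. Those in litter B were 11.05, 16.7 and 19.8 in Spry2FF mice and 10.7, 8.498 and 7.44 in Spry2IEKO mice. The genotypes overlapped in litter A and did not overlap in litter B. Over both litters the log2 difference was -0.44 ± 0.19 (SE), with an adjusted p of 0.762 by limma, and in fits of single litters it was -0.09 (A) and -0.78 (B). Without Spry2IEKO replicate 12 it was -0.34.

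The other 3 genes with the lowest unadjusted p were pan-neuronal. Tubb3 had a lowest, median and highest level of 5.39, 6.85 and 10.1 in Spry2FF mice and of 2.73, 6.10 and 7.404 in Spry2IEKO mice, with a log2 difference of -0.42 ± 0.22 (SE). Gap43, a growth cone protein gene, spanned 6.22 to 10.6 in Spry2FF mice and 3.25 to 8.30 in Spry2IEKO mice, with a log2 difference of -0.37 ± 0.21 (SE). Elavl4, which encodes the neuronal RNA-binding protein HuD, spanned 1.88 to 4.67 in Spry2FF mice and 1.48 to 2.91 in Spry2IEKO mice, with a log2 difference of -0.35 ± 0.21 (SE). In each the genotypes overlapped, and the unadjusted p was 0.0794, 0.109 and 0.128 in that order. Without Spry2IEKO replicate 12 the differences were -0.26, -0.20 and -0.24.

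The 4 most abundant pan-neuronal genes had genotype differences within or at their SE. L1cam had a median level of 44.6 in Spry2FF and 41.2 in Spry2IEKO mice and a log2 difference of -0.03 ± 0.11 (SE). Snap25 had medians of 14.9 and 15.3 and a log2 difference of 0.03 ± 0.14 (SE), the only pan-neuronal difference above 0. Uchl1 had medians of 20.6 and 19.4, and Stmn2 of 16.4 and 14.0. Their log2 differences were -0.09 ± 0.23 and -0.21 ± 0.21 (SE). For all 4 the adjusted p lay between 0.902 and 0.980. Of the 12 pan-neuronal genes, 11 had a difference below 0, with a median of -0.22. Leaving out Spry2IEKO replicate 12 left 10 below 0, with a median of -0.13.

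**Figure D2:**
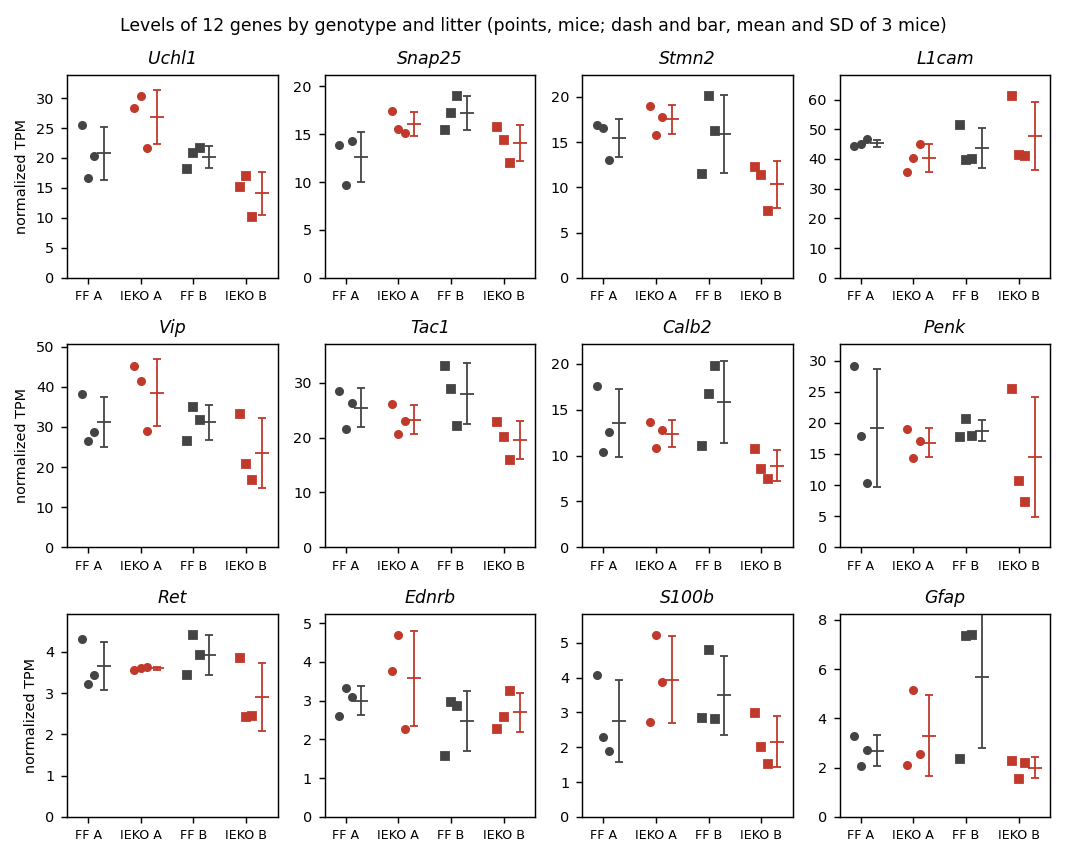
Levels in normalized TPM (vertical axes, from 0) of 12 genes in Spry2FF (grey) and Spry2IEKO (red) mice of litters A (circles) and B (squares), with the mean and SD of 3 mice beside each set of points. In Uchl1 and Vip the highest values belong to Spry2IEKO mice of litter A and the lowest to those of litter B.

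Among the transcription factors and receptors, 4 of 6 differences were below 0, with a median of -0.08. Leaving out Spry2IEKO replicate 12 turned this to 2 of 6 below 0 and a median of 0.08. Hand2, a transcription factor of neural crest derived neurons that gut mesenchyme also expresses, had the widest spread, from 1.78 in Spry2IEKO replicate 12 to 9.81 in Spry2IEKO replicate 8. The same 2 mice held the lowest and the highest Myh11, the smooth muscle myosin gene, at 244 and 772. Ret spanned 3.23 to 4.40 in Spry2FF mice and 2.42 to 3.85 in Spry2IEKO mice, with a log2 difference of -0.20 ± 0.14 (SE). Its co-receptor gene Gfra1 was close to constant in Spry2FF mice, at 3.27 to 3.41 in 5 of them and 2.61 in the sixth. Gfra2, the co-receptor gene for neurturin, varied more, from 1.51 to 7.08, with high and low mice in both genotypes. Ednrb had medians of 2.91 in both genotypes and a log2 difference of 0.16 ± 0.20 (SE). Phox2a, a factor of autonomic neurons, had a mean of 0.847 and a difference of -0.03.

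All 8 tested transmitter and peptide genes had a genotype difference below 0, with a median of -0.30. With Spry2IEKO replicate 12 left out, 6 of 8 were below 0 and the median was -0.18. Vip, the gene of the inhibitory transmitter peptide, was 38.2, 26.4 and 28.8 in the Spry2FF mice of litter A and 45.2, 41.4 and 29.1 in the Spry2IEKO mice. In litter B it was 26.6, 35.1 and 31.7 in Spry2FF mice and 33.3, 20.7 and 16.6 in Spry2IEKO mice. The highest and the lowest level of Vip were therefore both in Spry2IEKO mice, and its log2 difference was -0.07 ± 0.22 (SE). Penk spanned 10.3 to 29.2 in Spry2FF and 7.33 to 25.4 in Spry2IEKO mice. Nos1, the neuronal nitric oxide synthase gene, spanned 2.89 to 4.26 and 1.64 to 3.72, with a log2 difference of -0.29 ± 0.18 (SE). Cartpt and Npy were low and variable, with an 8.04-fold and a 6.08-fold range over mice.

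Both cholinergic genes were low. Spry2IEKO replicate 12 had the highest Chat level of all mice, 0.795, and the lowest Slc18a3 level, 0.157. Spry2IEKO replicate 11 was low in both, with the lowest Chat level, 0.153, and a Slc18a3 level of 0.445, and Spry2FF replicate 2 was high in both, at 0.687 and 1.32. Besides cholinergic neurons, tuft cells of the epithelium express Chat, and the tuft cell list was highest in replicate 12. Whether tuft cells gave the Chat level of that mouse was not tested. Across the 12 mice Chat had a Pearson r of 0.03 with Elavl4 (Spearman rho 0.01) and of 0.30 with the tuft cell gene Dclk1 (rho 0.28). The permutation p for r was 0.927 and 0.346, or 0.927 and 0.518 after adjustment over 6 pairs, and that for rho was 0.974 and 0.380, or 0.974 and 0.570 adjusted. Within litters r was 0.49 (A) and -0.17 (B) with Elavl4, and 0.21 in each with Dclk1. Without the 2 mice farthest from the median of Chat, Spry2IEKO replicates 11 and 12, r was 0.13 and 0.40. Chat had a mean of 0.478 and Th, the tyrosine hydroxylase gene, of 0.144 with 4 mice listed at 0, so both were left untested.

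The glial genes mark the neurons' supporting cells. Sox10 is a transcription factor of the neural crest lineage, S100b and Gfap encode a calcium-binding and a filament protein, and Cdh19 a cadherin. Sox10 spanned 1.06 to 1.76 in Spry2FF and 0.484 to 2.11 in Spry2IEKO mice, so the controls lay inside the range of the other genotype. S100b spanned 1.88 to 4.80 and 1.51 to 5.22, and Cdh19 1.36 to 2.27 and 1.26 to 3.02. In litter A, Gfap was 3.30, 2.06 and 2.71 in controls and 2.12, 5.17 and 2.57 in Spry2IEKO mice. In litter B it was 2.35, 7.35 and 7.37 in controls and 2.28, 1.52 and 2.20 in Spry2IEKO mice. Its genotypes thus overlapped in litter A and did not in litter B. The log2 differences were -0.24 ± 0.25 for Sox10, -0.06 ± 0.27 for S100b, -0.50 ± 0.33 for Gfap and 0.02 ± 0.19 for Cdh19 (SE), and the adjusted p lay between 0.848 and 0.991. Foxd3 spanned 0.0947 to 0.721.

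Over both litters the neuronal and glial genes had similar median differences by genotype. The median log2 difference was -0.20 over 25 neuronal and -0.15 over 4 glial genes, a gap of -0.06. With Spry2IEKO replicate 12 left out the medians were -0.12 and 0.004, a gap of -0.13. The neuronal minus the glial list median of single mice had an SD of 0.24 within a genotype, which is not the error of the gap. In litter A alone 9 of 25 neuronal and 4 of 4 glial differences were above 0. Litter B alone had 2 of 25 and 0 of 4. In the litter comparison the gap was 0.01, and in the interaction of genotype and litter it was 0.37.

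Litter B was compared with litter A with genotype in the fit. None of the 30 genes passed the test, where 4.38% of all genes did. At an unadjusted p under 0.05 there was 1 gene of 30, Uchl1, beside 21.9% of all genes. The difference was below 0 in 22 genes, with a median of -0.10 against -0.05 for all genes, and without Spry2IEKO replicate 12 the median was 0.01. Litter A had Uchl1 levels of 25.4, 16.6 and 20.3 in controls and of 28.4, 30.3 and 21.7 in Spry2IEKO mice. Litter B had 18.2, 20.8 and 21.7 in controls and 15.1, 17.1 and 10.1 in Spry2IEKO mice. Of the 4 lowest levels, 3 were those of the Spry2IEKO mice of litter B. Its log2 difference by litter was -0.47 ± 0.19 (SE), with an adjusted p of 0.175 by limma, and -0.33 without Spry2IEKO replicate 12. The next genes were Npy at -0.61 ± 0.29, Stmn2 at -0.37 ± 0.19, Vip at -0.36 ± 0.20 and Slc18a3 at -0.36 ± 0.20, with adjusted p between 0.253 and 0.321. Npy spanned 1.43 to 3.12 in litter A and 0.513 to 2.45 in litter B, and sympathetic fibres also carry it. Slc18a3 spanned 0.544 to 1.32 in litter A and 0.157 to 0.910 in litter B.

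The genotype difference was then compared between litters by the interaction of genotype and litter. None of the 30 genes passed the test, where 0.0126% of all genes did, and the adjusted p was 0.998 for all of them. At an unadjusted p under 0.05 there were 6 of 30, each with a more negative genotype difference in litter B, beside 4.19% of all genes. They were Uchl1, Snap25, Stmn2, Gfap, Tubb3 and S100b. The interaction was below 0 in 28 of 30 genes, with a median of -0.48, while 46.2% of all genes had an interaction above 0. L1cam and Npy were the exceptions. Within litter A alone the median genotype difference was -0.02, and it was 0.20 for the glial genes. Within litter B alone it was -0.47, and -0.57 for the glial genes. Genotype and sex were not balanced in litter A.

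Uchl1 and Snap25 had the lowest p of the interaction. Within litters, Uchl1 had a genotype difference of 0.37 (A) and -0.54 (B), an interaction of -0.90 ± 0.30 (SE) with an unadjusted p of 0.0111. For Snap25 litter A had 13.9, 9.65 and 14.3 in controls and 17.4, 15.6 and 15.1 in Spry2IEKO mice. Litter B had 15.4, 17.2 and 19.0 in controls and 15.7, 14.4 and 12.02 in Spry2IEKO mice. All 3 Spry2IEKO mice lay above the controls in litter A, and the genotypes overlapped in litter B. Its interaction was -0.64 ± 0.23 (SE). Leaving out Spry2IEKO replicate 12 brought the median interaction to -0.26 with 3 genes at an unadjusted p under 0.05 (Uchl1, Snap25 and Gfap), and leaving out Spry2IEKO replicate 8 brought the median to -0.72.

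**Figure D3:**
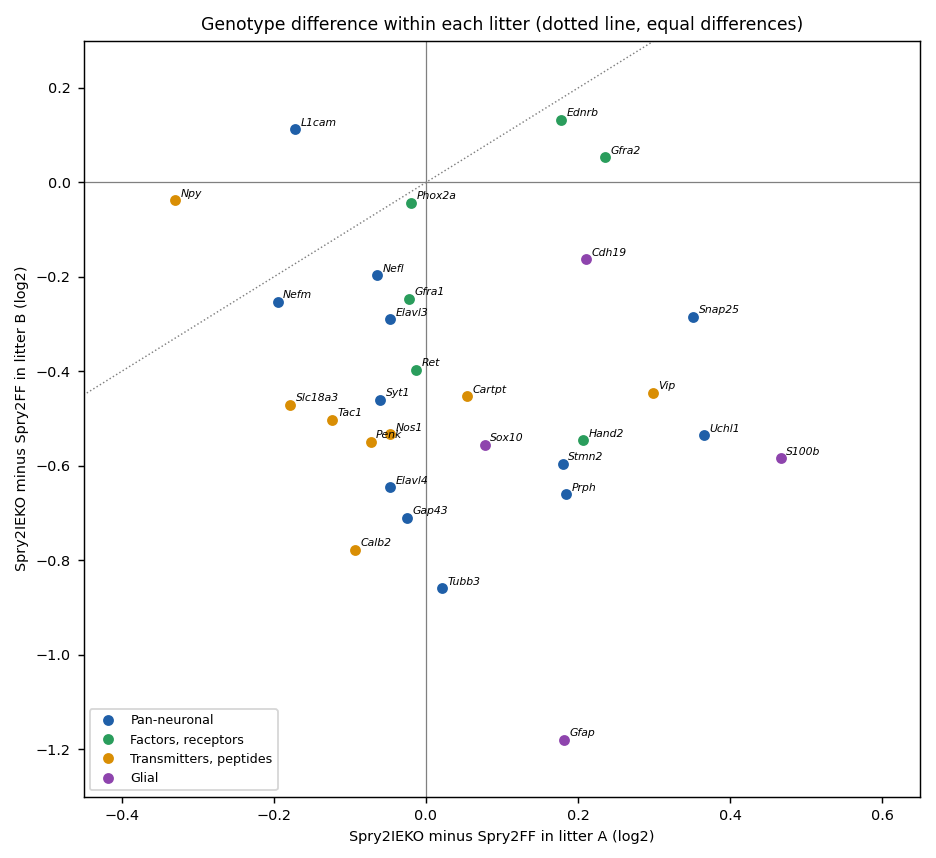
Each point is a tested gene, with its log2 genotype difference (Spry2IEKO minus Spry2FF) in litter A on the horizontal and in litter B on the vertical axis, coloured by role. Most points lie under the dotted line of equal differences, with Gfap lowest, and L1cam and Npy above it.

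Further genes of the same cells and their signals were read from lists. Of 30 other neuronal genes 28 were tested, and by genotype none was called, 23 differences were below 0 and the median was -0.11. The lowest unadjusted p were those of Map2, a dendritic microtubule protein gene, at 0.48 ± 0.24 (SE), Slc5a7, the choline transporter gene, at -0.28 ± 0.16 (SE), and Dbh, the gene for noradrenaline synthesis, at -0.54 ± 0.35 (SE). With Spry2IEKO replicate 12 left out, 17 of the 28 genotype differences were below 0 and the median was -0.03. By litter 1 of the 28 was called, beside 4.38% of all genes. Dpysl3, a gene of axon growth that stromal cells also express, had a mean of 14.1 ± 0.683 (SD, n = 6) in litter A and 10.2 ± 1.98 (SD, n = 6) in litter B. Its log2 difference was -0.47 ± 0.12 (SE), with an adjusted p of 0.043 by limma. The call was lost in 10 of the 12 fits that left out a mouse, all but those without Spry2FF replicate 10 or Spry2IEKO replicate 8, with adjusted p from 0.0209 to 0.0958. Next came Slc18a2 at 0.37 and Gal at -1.08, which were not called, and of all 28 there were 5 above 0, while 41.2% of all genes were. The stromal list fell in the same comparison, with 3 of 5 fibroblast genes called lower and a median of -0.73.

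Of 18 other glial genes 14 were tested, and none was called in any comparison. The median by genotype was 0.01, with 6 of 14 below 0, and Entpd2, Gpm6b and Ngfr had the lowest unadjusted p at -0.16, 0.33 and -0.36. Leaving out Spry2IEKO replicate 12 brought the median to 0.15, with 2 of 14 below 0. By litter 12 of 14 were below 0, and Cnp (-0.35) and Entpd2 (-0.18) were among those with the lowest p. Of 10 trophic ligands 9 were tested and none was called. By genotype Artn (0.35), Nrg1 (-0.38) and Pspn (0.66) had the lowest p. By litter Ece1 (-0.30) and Artn (-0.45) were among the lowest. Gdnf, the ligand for Ret, had a genotype difference of 0.09 ± 0.20 (SE), and Edn3, the ligand for Ednrb, of 0.16 ± 0.20 (SE).

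The lists of other cells in the colon wall were read in the same way, since the amount of muscle in a piece of tissue changes the share of myenteric ganglia. By genotype none of the smooth muscle (12), epithelial (10), tuft (6 tested), enteroendocrine (9), fat (5 tested), interstitial cell of Cajal (3), mesothelial (1 tested), striated muscle (4 tested) or fibroblast (5) genes was called. The summed smooth muscle level spanned 4564 to 7520 in Spry2FF and 3521 to 8614 in Spry2IEKO mice, the last 2 being replicates 12 and 8. The median differences were -0.09 for smooth muscle, -0.17 for epithelium (5 of 10 genes at an unadjusted p under 0.05, all lower), 0.47 for tuft cells, 0.88 for fat (5 of 5 above 0) and -0.39 for striated muscle (4 of 4 below 0). Leaving out Spry2IEKO replicate 12 gave 0.002 for smooth muscle, -0.18 for epithelium, 0.43 for tuft cells, 1.30 for fat and -0.27 for striated muscle. The fat list was high in Spry2IEKO replicates 4 and 5, with medians of 3.05 and 4.50. With the smooth muscle level as a covariate the median genotype difference of the 30 genes was -0.18, and none was called.

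**Figure D4:**
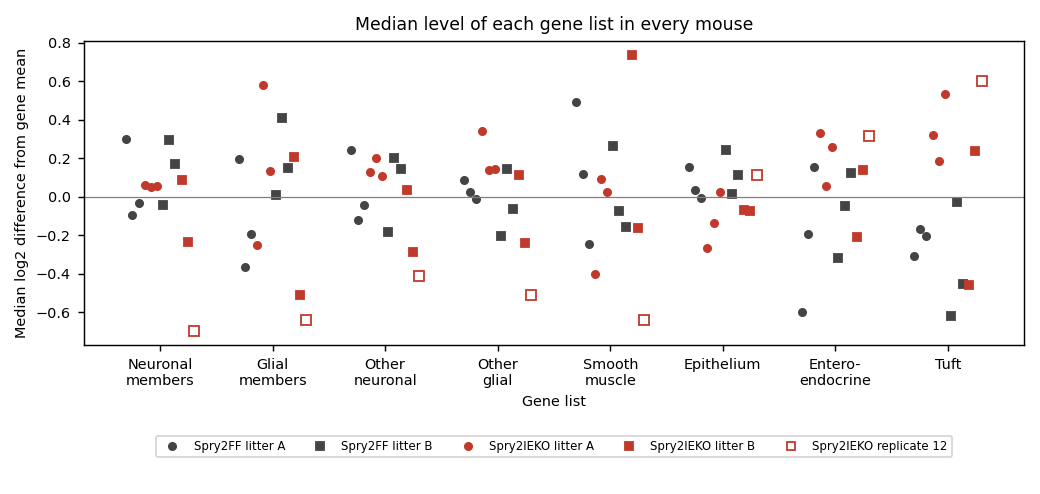
Median over each gene list of the difference from the gene's mean, on the scale of log2(normalized TPM + 0.5), in every mouse (grey Spry2FF, red Spry2IEKO, circles litter A, squares litter B). The open square, Spry2IEKO replicate 12, is lowest in the neuronal, glial and smooth muscle lists and highest in the tuft list.

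Across the 12 mice, Sox10 and Myh11 had a Pearson r of 0.79 (Spearman rho 0.73), with permutation p of 0.00211 and 0.00951. After adjustment over the 6 pairs these were 0.0127 and 0.0571. Within litters r was 0.78 (A) and 0.82 (B). Without the 2 mice farthest from the median of Sox10, Spry2IEKO replicates 11 and 12, it was 0.66 with a permutation p of 0.0371, or 0.222 adjusted, and was not called on the 10 mice left. Elavl4 and Sox10, a neuronal and a glial gene, had an r of 0.60 and a rho of 0.51. The permutation p was 0.0382 for r and 0.0933 for rho, or 0.114 and 0.280 adjusted. Within litters this r was 0.02 (A) and 0.83 (B), and it was 0.36 without Spry2FF replicate 13 and Spry2IEKO replicate 12, so the relation did not hold in litter A. Elavl4 had an r of 0.36 (rho 0.30) with Myh11, with permutation p of 0.252 and 0.344 and adjusted values of 0.505 and 0.570. Within litters it was 0.29 (A) and 0.38 (B), and 0.24 without the same 2 mice. With the epithelial gene Epcam the r was 0.17 (rho 0.10), with permutation p of 0.588 and 0.749 and adjusted values of 0.706 and 0.899. That r was -0.40 (A) and 0.56 (B) within litters and 0.01 without those mice.

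**Figure D5:**
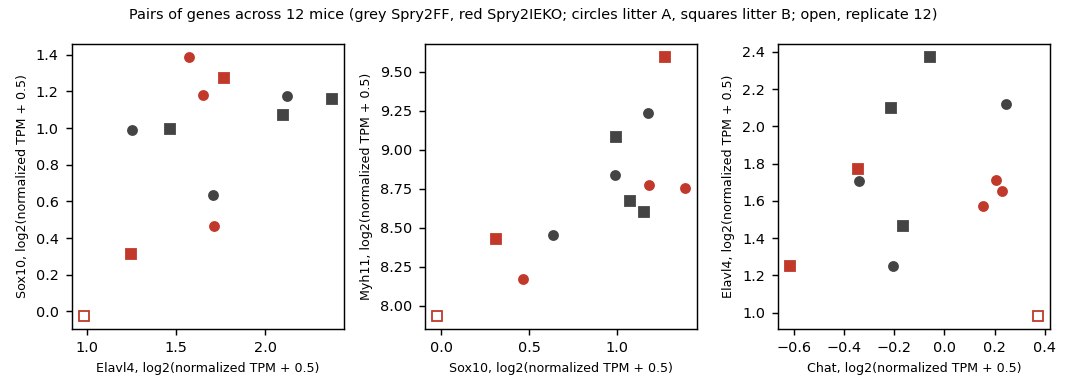
Each point is a mouse, placed by log2(normalized TPM + 0.5) of the genes on the axes, for Elavl4 and Sox10, Sox10 and Myh11, and Chat and Elavl4. Spry2IEKO replicate 12 (open square) is at the lower left in the first 2 panels and at the lower right in the third.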

How the data were processed

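RNA of the distal colon wall was sequenced from 12 mice. Per the labels, the libraries came from a stranded mRNA kit, and the processing notes of the submitters name CASAVA, kallisto, sleuth and the mm10 build. The deposited values are a signal per transcript, TPM scaled by the authors between mice (their totals differ), and the depth of each mouse is not in the table. The study's methods name a single nominal depth for all libraries. The table also holds p-values, q-values and variance estimates of the authors' own comparison, which were not used. Of 113974 transcript entries, 781 repeats were dropped, and transcripts were summed by gene symbol. Genes spelled as dates (28) were renamed from their identifiers. Plans were written for TPM. The scaled values were tested in the same way, with limma 3.58.1 (R 4.3.3, trended eBayes, two-sided, Benjamini-Hochberg) on log2(value + 0.5) over the 15879 genes whose mean reached 0.5. Differences are Spry2IEKO minus Spry2FF, or litter B minus A with genotype as covariate, and the scale understates changes of low genes. Correlations used 100000 permutations, or all pairings within a litter. Groups share no replicate numbers. Each library was taken as 1 mouse, as the labels read, and p-values measure the spread between these libraries. The genes described singly include the 4 of highest mean in each role and the 5 of lowest unadjusted p by genotype and by litter. Values in every mouse are printed for Calb2, Gfap, Snap25, Uchl1 and Vip. The others are given as ranges, medians, extremes or differences. From the other lists, called genes and up to 3 of lowest p are named, except a few that are not reported here. Genes named for the interaction and the ligands Gdnf and Edn3 were added after their values were seen. Members and lists were chosen with earlier results of these data known. The fits were tested on simulated data. Gene positions are from GENCODE M21.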

Additional observations from a re-analysis of the deposited data

Results flagged for a closer look

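Of 70 groups of 6 mice (33 genes and the medians of the neuronal and glial genes, each in both genotypes), 4 held a mouse far from the other 5, where chance gives about 1 group in 20. L1cam was 61.1 in Spry2IEKO replicate 8 and 35.7 to 45.01 elsewhere in that genotype. For Gfra1, Spry2FF replicate 9 had 2.61 and the other controls 3.27 to 3.41. Gfap was 5.17 in Spry2IEKO replicate 5 and 1.52 to 2.57 in the others of its genotype. For Cdh19, Spry2FF replicate 3 had 1.36 and the other controls 2.06 to 2.27. The low values of Spry2IEKO replicate 12 were not among these. Among the 30 tested genes, no genotype difference passed the test between litters, and none had genotypes apart in opposite directions in the 2 litters.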

How the results depend on the processing

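None of the 30 genes was called by genotype or by litter under any alternative run: other pseudocounts and filters, the highest transcript only, equal totals, quantile normalization, robust moderation, covariates, females alone, single litters or genotypes, and each mouse left out. The interaction was refitted only with each mouse left out, which was added after seeing the data, and none was called. The median genotype difference was -0.47 in litter B alone, and with a mouse left out it ran from -0.25 to -0.10. The median litter difference was 0.13 in Spry2FF mice alone and -0.34 in Spry2IEKO mice alone, and with a mouse left out it ran from -0.18 to 0.01. With a mouse left out, the median interaction ran from -0.72 to -0.26. With a mouse left out, the neuronal minus glial gap ran from -0.13 to 0.03 by genotype and from -0.08 to 0.07 by litter. Over the other alternatives its extremes were -0.22 (litter A alone) and 0.11 (litter B alone) by genotype, and -0.14 (Spry2FF alone) and 0.17 (Spry2IEKO alone) by litter. Scaling mice to equal totals brought the litter median of the 30 genes to -0.16 and that of all genes to -0.12, and quantile normalization brought the former to -0.01. The correlation of Sox10 with Myh11 was 0.78 in litter A, 0.82 in litter B and 0.66 without the 2 far mice, and was no longer called there, with fewer mice in each. That of Elavl4 with Epcam was -0.40 in litter A, and that of Chat with Elavl4 was -0.17 in litter B, and the cause was not tested. Of the single genes, 14 changed sign by genotype under some alternative that kept every mouse or a whole litter, genotype or sex, and 24 by litter, none of them called. The litter call of Dpysl3 was also lost without the filter on low genes, with quantile normalization and in females, Spry2FF or Spry2IEKO mice alone, with adjusted p of 0.0646, 0.0624, 0.145, 0.321 and 0.358. No paired analysis by replicate number was possible because the genotypes share none. With litter as a covariate, 2 of the 30 genes had an unadjusted p under 0.05 by genotype and the lowest adjusted p was 0.570. Without counts, the counting error of low genes such as Th, Chat and Foxd3 was not computed.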
